A study of Mus musculus with 36 samples.

Results

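Th2 cells lacking a regulatory element of the Ets1 locus were compared with wild-type Th2 cells. The libraries were chosen by their labels, as the Th2 libraries of the first of the study's experiments, and make up 6 of the 36 libraries of the series. The study measured total RNA of mouse CD4+ T cells, freshly selected or polarized in culture, from spleens of mice with and without the deletion. The tested group held 3 libraries of Th2 cells from C57BL/6J-Ets1-SE-KO mice, called KO here. The other group held 3 libraries of Th2 cells from C57BL/6J mice, called WT. The deletion is named in the study for a super-enhancer, a cluster of enhancers, at the Ets1 locus, and the labels give neither its coordinates nor the age or sex of the mice. Naive CD4+ T cells were obtained by negative selection with beads and stimulated on plates coated with anti-CD3. The labels describe a Th1 culture with interleukin 12, interleukin 2 and anti-CD28 for 6 days, and they do not describe the Th2 culture. All 6 Th2 libraries, and the 6 Th1 libraries set beside them, carry the same B number of 1 in their titles and differ in a T number. If T stands for technical repeats, p-values measure only the spread between repeats of 1 culture or animal per group, and the labels do not settle this. In virus-treated Th1 cells of the study, libraries sharing a B number differed less than libraries of different B numbers, with values given under processing.

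T helper cells leave the naive state after contact with antigen and take on specialised programmes. Th2 cells depend on the transcription factor Gata3 and make the cytokines Il4, Il5 and Il13, which act in allergy and in defence against worms, while Th1 cells depend on Tbx21 and make Ifng. Ets1 is the founding member of the ETS family of transcription factors, which bind sites with a GGAA core, is abundant in lymphocytes, and is known from mice lacking it to be needed for Th1 cytokine production.

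The Th2 libraries carried their defining markers. Gata3 had 425, 436 and 433 CPM (normalised read counts, scaled to library size with TMM factors) in KO Th2 cells and 398, 445 and 397 CPM in WT Th2 cells, against 142.8, 210.5 and 95.4 CPM in WT Th1 cells. Ifng, with 5 reads over the 3 KO Th2 libraries and 28 over the 3 WT Th2 libraries, had 963, 534 and 683 CPM in WT Th1 cells. Gene counts per library came to 7506877, 8361447 and 8696279 in KO Th2 cells and to 7361635, 7311614 and 7590639 in WT Th2 cells. Unmapped reads made up 43.6 to 49.0% of the column totals, summary lines included, in KO Th2 libraries and 48.1 to 50.3% in WT Th2 libraries. The summed level of 6 markers of gamma-delta T cells was 2.32 to 4.98 CPM in KO Th2 libraries and 7.04 to 13.2 CPM in WT Th2 libraries, with none of the 6 at 0 in all 6 libraries and 0 of the 4 tested called. The sum of the 2 CD8 markers was 9.76 to 11.4 CPM in KO and 5.65 to 8.51 CPM in WT libraries, so both sums separated the genotypes. Markers of B cells (36.9 to 55.6 CPM in KO, 28.2 to 46.7 CPM in WT), dendritic cells (7.54 to 11.1 CPM in KO, 7.18 to 14.5 CPM in WT) and NK or NKT cells (0.927 to 5.79 CPM in KO, 1.38 to 3.69 CPM in WT) overlapped between the genotypes, with Ncr1, Klra8, Xcr1, Clec9a and Siglech at 0 throughout. Sums over 10 myeloid, 8 mast cell and basophil, and 8 erythroid and platelet markers stayed at or under 1.93 CPM in each of the 6 libraries. Xist was read in every Th2 library (224 to 331 CPM in KO, 206 to 214 CPM in WT), and 4 Y-linked genes, Uty, Ddx3y, Kdm5d and Eif2s3y, were at 0 in all of them.

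Few genes were called between the genotypes in Th2 cells. Of 12616 genes tested with edgeR's quasi-likelihood test, 41 passed an adjusted p of 0.05 (0.325%), 13 higher in KO (0.103%) and 28 lower in KO (0.222%), and 38 of the 41 were protein coding. At an unadjusted p under 0.05 there were 1181 genes (9.36%), and DESeq2 called 79 (0.626%), including all 41. The fold change was at least 2-fold in 13 of the 41 on the fitted scale. In each of the 41 the 3 KO libraries lay wholly on 1 side of the 3 WT libraries, which was so for 14.2% of all genes tested (6.80% with KO above, 7.44% with KO below). The calls include a granzyme, matrix and adhesion proteins, lysosomal enzymes and regulators of T cell receptor signals, but neither Gata3 nor a Th2 cytokine. The number of calls was 14 when either KO 2 or KO 3 of the Th2 libraries was omitted, 19 when WT 1 of Th2 cells was, 68 when KO 1 of Th1 cells was and 62 when WT 3 of Th1 cells was. A permutation of 3 against 3 libraries cannot give a two-sided p under 0.1, so single genes rest on the spread shared across genes in the fit.

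**Figure D1:**
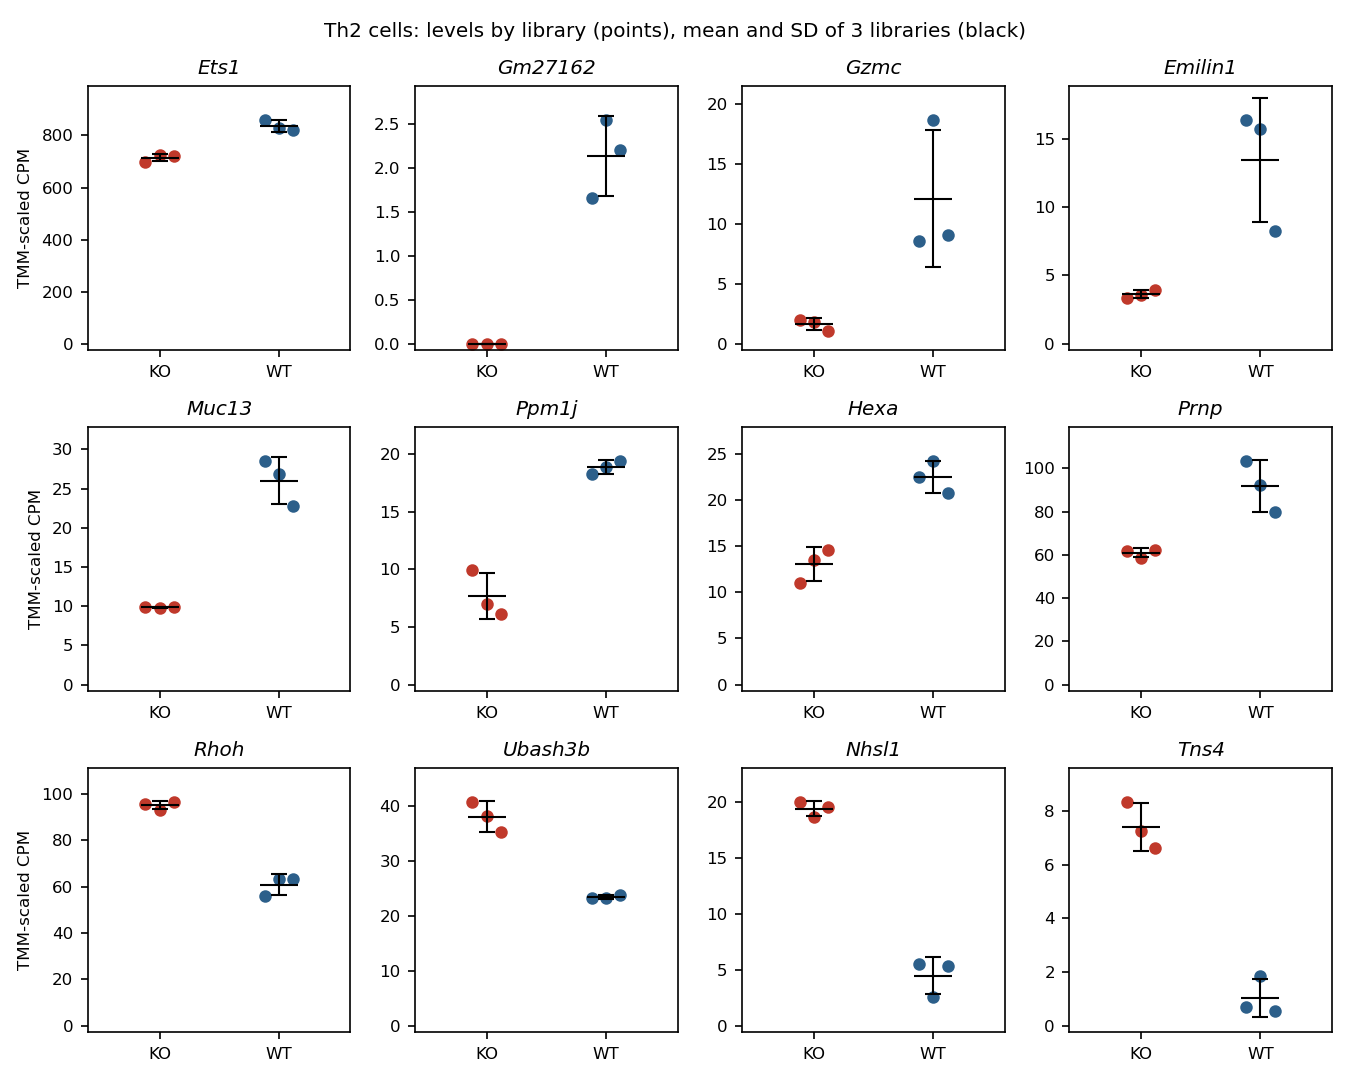
Levels of Ets1 and of the 11 genes called under every processing alternative in Th2 cells, as TMM-scaled CPM on linear axes from 0, KO left and WT right in each panel, with points for libraries and black marks for the mean and SD of 3 libraries. In each of the 12 panels the KO points and the WT points do not overlap, and Gm27162 is at 0 in all 3 KO libraries.

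Of the 41 genes, 33 had an entry in RefSeq's promoter windows (assembly GRCm38.p6, 250 bases before to 50 bases after RefSeq's gene start), which were searched on both strands for CCGGAA, a letter string within the binding sequence of many ETS factors. It stood in the windows of 5 of the 33 called genes (15.2%), against 3001 of 9019 tested genes with a window (33.3%). The longer string CCGGAAGT, which contains the first, stood in 0 of the 33, against 891 of the 9019 (9.88%). The 6 matches are shown because they are all that the called genes hold, each read 5′ to 3′ on the gene's strand with CCGGAA, or TTCCGG where the match is on the other strand, in capitals. Adam15, with 2 matches, lies on the minus strand (chr3:89350155-89350194 and chr3:89350049-89350088), as do Iqsec1 (chr6:90716581-90716620) and Smtn (chr11:3539490-3539529), and Tnfrsf1a (chr6:125349697-125349722) and Sypl (chr12:32953868-32953907) lie on the plus strand. The RefSeq starts of Iqsec1, Smtn, Tnfrsf1a and Sypl lie inside the GENCODE gene bounds (chr6:90656088-90988685, chr11:3517523-3540612, chr6:125349362-125362484 and chr12:32953891-32979860, in that order). Starts of these genes outside the windows were not searched. Adam15, Iqsec1 and Tnfrsf1a were lower in KO, and Smtn and Sypl were higher in KO.
Adam15, first match: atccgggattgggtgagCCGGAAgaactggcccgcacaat
Adam15, next match: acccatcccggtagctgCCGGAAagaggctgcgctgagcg
Iqsec1: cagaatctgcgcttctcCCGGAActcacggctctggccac
Tnfrsf1a: cgcctctccccaggctcTTCCGGtcc
Smtn: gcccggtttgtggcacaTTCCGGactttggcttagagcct
Sypl: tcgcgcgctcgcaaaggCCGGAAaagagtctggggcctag

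Transcripts of the Ets1 locus on chromosome 9 differed between the genotypes to unequal degrees. Gm27162, a long intergenic noncoding RNA gene on the minus strand (GRCm38 chr9:32904937-32928966, 0.147 Mb from Ets1), had 0, 0 and 0 reads in KO Th2 libraries and 12, 18 and 16 reads in WT Th2 libraries. Taking 3 counts over the KO group as the limit that 0 reads allow, it was at least 16.9-fold lower in KO (adjusted p = 0.00112, edgeR). It was also at 0 in every KO library of Th1, untransduced Th1 and naive cells. The labels give no coordinates of the deletion, so loss of the gene itself and loss of its expression cannot be told apart. Ets1 itself (chr9:32636221-32757820, plus strand) had 699, 725 and 722 CPM in KO Th2 cells and 861, 827 and 820 CPM in WT Th2 cells. All KO libraries lay below all WT libraries, but the log2 fold change of -0.23 (SE 0.0633) missed the threshold (adjusted p = 0.176, edgeR), and it did so in all 18 alternatives (0.0828 to 0.442). In Th1 cells Ets1 had 592, 540 and 614 CPM in KO, against 738, 842 and 806 CPM in WT (log2 fold change -0.45, adjusted p = 6.41e-04), and in naive cells 693 and 717 CPM in KO, against 1820 and 1813 CPM in WT. The difference between the Th2 and Th1 effects on Ets1 was 0.22 (log2, 95% interval 0.04 to 0.41, adjusted p = 0.428). Fli1, the neighbouring ETS factor gene, had 40.5, 37.6 and 40.1 CPM in KO and 35.5, 40.99 and 36.2 CPM in WT Th2 cells (log2 fold change 0.07, adjusted p = 0.90).

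Gzmc, a granule serine protease of cytotoxic lymphocytes, had the largest fall among the called genes read in both genotypes. Gzmc had 2.02, 1.79 and 1.04 CPM in KO Th2 libraries and 8.56, 18.7 and 9.09 CPM in WT Th2 libraries. Its mean CPM was 7.50-fold lower in KO (log2 fold change -2.91, SE 0.40, adjusted p = 0.00112, edgeR), with WT library 2 the highest and no overlap. Folds given for single genes from here on are likewise ratios of mean CPM, while log2 fold changes come from the fit. Fewer cells of a type and less RNA per cell cannot be told apart in bulk RNA. The 4 tested gamma-delta markers had a median log2 fold change of -1.72 with no call. Trdc, the delta constant gene, had 2.42, 1.79 and 1.16 CPM in KO and 3.45, 7.09 and 6.47 CPM in WT (adjusted p = 0.0927, edgeR). Trdc was called in 5 of 18 alternatives, DESeq2 and the Th2 libraries alone among them. The part of these markers in the Gzmc result was not tested. Of 19 listed granule genes 17 were tested, and Gzmc was the only member called, against 0.325% called over all genes. Their median log2 fold change was -0.82, against -0.003 over all genes tested, and 14 of the 17 values were negative. The summed level of the 19 genes overlapped between the genotypes, at 1427 to 1681 CPM in KO and 1446 to 1687 CPM in WT Th2 libraries. Prf1, the pore-forming perforin, had 4.98, 1.79 and 3.13 CPM in KO and 7.87, 15.5 and 5.09 CPM in WT (log2 fold change -1.54, adjusted p = 0.0927). Gzma, another granzyme, had 280, 198 and 259 CPM in KO and 151, 170 and 104 CPM in WT (log2 fold change 0.79, adjusted p = 0.0537). Without WT library 3 the adjusted p of Prf1 was 0.0155, and Gzma was called in 8 of 18 alternatives.

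The genes called lower are taken here in an order by known role, which was set after the values were seen and was not tested as a grouping. Emilin1, a glycoprotein of elastic fibres (chr5:30913402-30921277), had 3.37, 3.57 and 3.94 CPM in KO and 16.4, 15.7 and 8.26 CPM in WT, and was 3.72-fold lower in KO (adjusted p = 0.00112). Muc13, a transmembrane mucin (chr16:33794037-33819934), had 9.97, 9.76 and 9.85 CPM in KO and 28.6, 26.8 and 22.7 CPM in WT, a 2.64-fold fall with the smallest adjusted p of the comparison (1.06e-05). The 3 KO libraries differed by little for either gene, and WT library 3 was the lowest WT library for both. Lair1, an inhibitory receptor for collagen, had 1.48, 1.55 and 2.32 CPM in KO and 6.49, 8.51 and 2.89 CPM in WT (log2 fold change -1.72, adjusted p = 0.0319). Gpnmb, a transmembrane glycoprotein, had 14.01, 10.7 and 12.2 CPM in KO and 32.6, 45.2 and 18.3 CPM in WT (log2 fold change -1.38, adjusted p = 0.0181). WT library 3 lay close to the KO libraries for both genes. The call of Lair1 was lost without any 1 of 5 libraries, with an adjusted p of up to 0.176 without KO library 2. It was also lost when the Th2 libraries were fitted alone (0.0532), and Gpnmb had an adjusted p of up to 0.130 without KO library 2. Smaller falls passed the test for Pear1, an aggregation receptor of platelets and endothelium (12.9, 12.98 and 11.1 CPM in KO, 24.1, 22.7 and 19.3 CPM in WT, log2 fold change -0.84), and for St6gal1, which adds sialic acid to N-glycans (log2 fold change -0.62). Adam15, a membrane metalloprotease, was lower by -0.40 and lost its call when reads were counted without strand (adjusted p = 0.113).

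App, Psen2 and Prnp were each called lower in KO. App, the amyloid precursor protein gene, had 1.89, 2.26 and 2.43 CPM in KO and 4.69, 5.25 and 7.02 CPM in WT (2.58-fold lower, adjusted p = 0.0238). Psen2, a catalytic subunit of the gamma-secretase that cleaves it, had 13.7, 12.9 and 10.4 CPM in KO and 25.8, 22.4 and 17.6 CPM in WT (log2 fold change -0.83, adjusted p = 0.0155). Prnp, the prion protein gene, had 62.0, 58.7 and 62.5 CPM in KO and 104, 92.2 and 79.7 CPM in WT (log2 fold change -0.59, adjusted p = 0.00448). KO and WT libraries were apart in all 3 genes, as in all 41 calls. The App call was lost without KO library 2, where its adjusted p reached 0.118, and without 3 other libraries. Psen2 reached 0.129 without KO library 3.

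Enzymes and signalling genes completed the lower group. Ppm1j, a protein phosphatase of the PP2C family, had 9.97, 7.02 and 6.14 CPM in KO and 18.2, 18.9 and 19.4 CPM in WT (2.44-fold lower, adjusted p = 0.00112). Hexa, a subunit of the lysosomal enzyme beta-hexosaminidase, had 11.04, 13.45 and 14.6 CPM in KO and 22.5, 24.2 and 20.8 CPM in WT (log2 fold change -0.78, adjusted p = 0.00736). Both were called under all 18 alternatives. Tnfrsf1a, a receptor for tumour necrosis factor, had 8.75, 6.91 and 6.61 CPM in KO and 15.2, 11.6 and 12.7 CPM in WT (log2 fold change -0.83, adjusted p = 0.0178). Il10ra, the ligand-binding chain of the interleukin 10 receptor, had 111, 105 and 110 CPM in KO and 145, 128 and 170 CPM in WT (log2 fold change -0.44, adjusted p = 0.0386). Pik3r1, a regulatory subunit of phosphoinositide 3-kinase, had 155, 171 and 171 CPM in KO and 236, 235 and 186 CPM in WT (log2 fold change -0.40, adjusted p = 0.0474). Their calls were not firm. Tnfrsf1a reached an adjusted p of 0.137 without KO library 3, Il10ra 0.221 without KO library 2 and Pik3r1 0.220 without WT library 1. The other protein-coding genes called lower were the kallikrein protease Klk8 (-0.62), the endosomal ATPase gene Atp9a (-0.60), the calcium-binding Rcn1 of the endoplasmic reticulum (-0.59), the actin regulators Gmfg (-0.53) and Espn (-0.42), Trp53i11 (-0.52), Litaf of late endosomes (-0.51), the creatine kinase Ckb (-0.51) and the Arf exchange factor Iqsec1 (-0.50), all as log2 fold changes. Iqsec1 and Espn stood at an adjusted p of 0.0484 and at 0.05003 with RLE size factors.

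The 2 remaining calls were small RNA genes. Gm25395, a small Cajal body RNA gene (chr1:87776938-87777209) lying within Atg16l1 on the same strand, had 30.6, 17.5 and 22.7 CPM in KO and 34.4, 57.4 and 52.3 CPM in WT (log2 fold change -1.03, adjusted p = 0.0153). Gm24044, a small nucleolar RNA gene (chr9:120128780-120128935) within Rpsa, had 19.3, 11.7 and 13.8 CPM in KO and 22.5, 29.9 and 32.5 CPM in WT (log2 fold change -0.93, adjusted p = 0.0344). KO library 1 and WT library 1 came closest to each other in both genes. The genes that contain them gave log2 fold changes of -0.04 (Atg16l1, adjusted p = 0.967) and -0.16 (Rpsa, adjusted p = 0.386). Of 96 small nucleolar RNA genes tested 1 was called, and 80 had a negative Th2 value, with a median of -0.39. Of 41 small nuclear RNA genes 0 were called and 39 had a negative value, with a median of -0.48, against 6382 negative values among all 12616 genes. The small nucleolar RNA median was 0.03 in Th1 and 0.64 in naive cells, and the small nuclear RNA median was 0.01 in Th1 and 0.72 in naive cells. The summed level of the 96 genes was 1619 to 2161 CPM in KO Th2 libraries and 1991 to 2678 CPM in WT Th2 libraries, so the sums overlapped. How small RNA recovery varied between libraries, and its part in these 2 calls, was not tested.

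Among the 13 genes higher in KO, 4 rose by at least 2-fold, all known for roles in adhesion or the cytoskeleton, a grouping made after the values were seen. Dsg2, a desmosomal cadherin on chromosome 18, had 3.50, 6.91 and 6.49 CPM in KO and 0.690, 0.284 and 0.964 CPM in WT, and was 8.72-fold higher in KO (adjusted p = 0.0122). Tns4, a tensin of focal adhesions (chr11:99065678-99089306), had 8.35, 7.26 and 6.61 CPM in KO and 0.690, 1.84 and 0.551 CPM in WT, and was 7.203-fold higher (adjusted p = 4.94e-04). Nhsl1, a regulator of cell protrusions (chr10:18318985-18533892), had 20.1, 18.7 and 19.6 CPM in KO and 5.52, 2.55 and 5.37 CPM in WT, and was 4.34-fold higher (adjusted p = 0.00112). All 3 genes were low in each WT library and did not overlap between the genotypes. Dlc1 had 8.62, 7.98 and 12.1 CPM in KO and 2.90, 1.28 and 4.13 CPM in WT (log2 fold change 1.78, adjusted p = 0.00563). Dsg2 lost its call when any 1 of KO 2, KO 3 and WT 1 was omitted (adjusted p up to 0.0732), and Dlc1 without KO library 3 (0.0608).

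Ubash3b and Rhoh, both of the T cell receptor (TCR) pathway, were also higher in KO. Ubash3b, a phosphatase that dampens TCR signals (chr9:41011098-41161697), had 40.8, 38.2 and 35.2 CPM in KO and 23.2, 23.3 and 23.8 CPM in WT (log2 fold change 0.70, SE 0.0938, adjusted p = 0.00112). Rhoh, a GTPase of blood cells that helps couple the receptor to Zap70 (chr5:65861213-65896700), had 95.6, 93.2 and 96.8 CPM in KO and 55.9, 63.5 and 63.5 CPM in WT (log2 fold change 0.64, SE 0.0971, adjusted p = 0.00364). The WT libraries of Ubash3b lay within 1 CPM of each other. These were the 2 called members of 33 tested genes of TCR signalling and its brakes, whose median was -0.04, against 0.325% called over all genes. Sh2d2a, a TCR adaptor gene, came next with a log2 fold change of -0.33 (adjusted p = 0.057), and Cd247, the zeta chain gene, had 0.25 (0.178). Sh2d2a was called in 5 of 18 alternatives, DESeq2 among them.

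The other genes higher in KO changed by less than 2-fold. Ddc, which decarboxylates aromatic amino acids, had 16.8, 16.4 and 17.04 CPM in KO and 10.6, 9.22 and 8.68 CPM in WT (log2 fold change 0.82, adjusted p = 0.0415). Tpp1, a lysosomal peptidase, had 99.4, 88.8 and 71.6 CPM in KO and 51.2, 49.4 and 51.4 CPM in WT (log2 fold change 0.77, adjusted p = 0.018). The KO libraries of Tpp1 spread over a wide range but all stayed above the WT libraries. Parp11, an ADP-ribosyltransferase, had 36.6, 34.9 and 37.6 CPM in KO and 22.6, 26.4 and 21.8 CPM in WT (log2 fold change 0.62, adjusted p = 0.00723). Smtn, an actin-binding smoothelin, had 21.7, 21.3 and 21.2 CPM in KO and 14.2, 14.04 and 14.5 CPM in WT (log2 fold change 0.59, adjusted p = 0.0268). Both genes had tight replicates, although Smtn lost its call when reads were counted without strand (adjusted p = 0.0897). Sypl, a membrane protein of transport vesicles, had 30.4, 31.1 and 33.4 CPM in KO and 22.9, 23.0 and 17.9 CPM in WT (log2 fold change 0.57, adjusted p = 0.0364). Dpp4, the surface dipeptidase also called CD26, had 69.8, 64.7 and 73.3 CPM in KO and 50.9, 52.5 and 45.9 CPM in WT (log2 fold change 0.48, adjusted p = 0.0484). Vps33a, part of the complexes that tether vesicles to lysosomes, had 62.0, 55.4 and 55.6 CPM in KO and 42.6, 43.5 and 40.6 CPM in WT (log2 fold change 0.45, adjusted p = 0.0176). Ddc, Smtn and Dpp4 each lost their call whichever Th2 library was omitted, with adjusted p-values of up to 0.186, 0.122 and 0.238 in edgeR, in that order.

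The calls differed in how far they rested on single libraries. In all 18 alternatives 11 genes were called, 7 lower in KO (Gm27162, Gzmc, Emilin1, Muc13, Ppm1j, Hexa and Prnp) and 4 higher in KO (Rhoh, Ubash3b, Nhsl1 and Tns4). Omitting a KO library of Th2 cells left 22 of the 41 calls (KO 1), 14 (KO 2) or 13 (KO 3), with adjusted p-values of up to 0.176, 0.222 and 0.283 for those lost, in that order. Omitting a WT library of Th2 cells left 17 (WT 1), 30 (WT 2) or 26 (WT 3), with adjusted p-values of up to 0.22, 0.135 and 0.175 for those lost. Leaving out 1 Th1 library, which changes mainly the shared spread, cost 8 calls (KO 2), 5 (KO 3), 4 (WT 1), 1 (WT 2) or 0 (KO 1 and WT 3). The highest adjusted p of a call lost that way was 0.072. No call changed direction in any alternative.

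**Figure D2:**
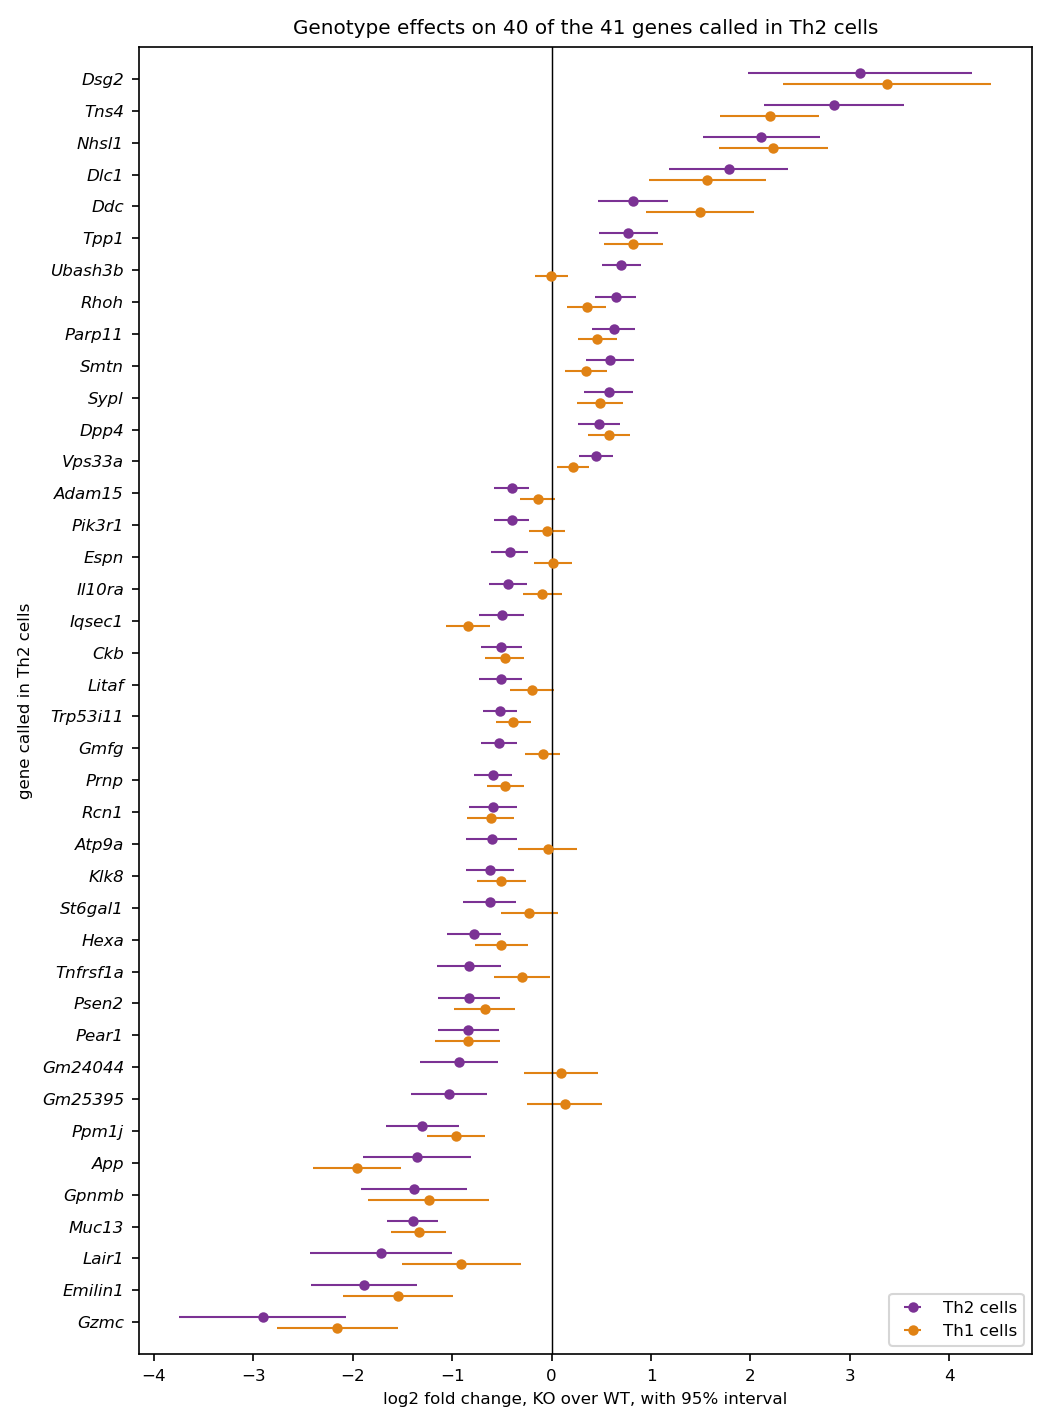
Genotype effects on 40 of the 41 genes called in Th2 cells (Gm27162, with 0 reads in KO, is left out), as log2 fold change of KO over WT with its 95% interval in Th2 cells and, under it, in Th1 cells. Both marks lie on the same side of 0 for most genes, while Ubash3b, at 0.70 in Th2 cells, sits at -0.00 in Th1 cells.

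Of 26 listed Th2 programme genes 22 were tested in Th2 cells and 0 were called, which at a share of 0.325% called over all genes sets the list apart in neither direction. The median log2 fold change was 0.03, with 11 of 22 values positive. Il4 had 27.9, 23.3 and 23.0 CPM in KO and 20.3, 31.3 and 19.4 CPM in WT (log2 fold change 0.06, 95% interval -0.38 to 0.51). Il13 had 292, 234 and 256 CPM in KO and 244, 243 and 254 CPM in WT (0.08, -0.47 to 0.62), and Gata3 had a log2 fold change of 0.06 (-0.35 to 0.47). The genotypes overlapped in these 3 genes. Il5 had 76.5, 54.2 and 52.7 CPM in KO and 65.5, 80.3 and 58.4 CPM in WT (-0.16, -0.90 to 0.59), and Pparg, a transcription factor used by Th2 cells, 53.3, 54.9 and 62.6 CPM in KO and 57.0, 58.0 and 56.2 CPM in WT (-0.00, -0.22 to 0.21). Il10, a cytokine that restrains immune responses, had 83.4, 67.7 and 77.4 CPM in KO and 41.5, 60.7 and 45.0 CPM in WT. Its libraries did not overlap, and its log2 fold change of 0.63 had an adjusted p of 0.335, or 0.0265 without Th1 KO library 1 and 0.0305 with the Th2 libraries fitted alone. Ccr8, a chemokine receptor of Th2 cells, had a log2 fold change of 0.25 (adjusted p = 0.747), and the smallest adjusted p of the list was 0.171 for Bhlhe41, a repressor with 9.83, 7.62 and 9.39 CPM in KO and 4.69, 4.54 and 5.51 CPM in WT.

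Of 30 listed Th1 programme genes 28 were tested in Th2 cells, 0 were called, and 25 of the 28 values were negative, with a median of -0.17. Over all 12616 genes tested, 6382 values were negative and 6233 positive, with a median of -0.003. The summed level of the 30 genes overlapped between the genotypes, at 897 to 1022 CPM in KO and 969 to 1221 CPM in WT Th2 libraries. Tbx21 had 6.33, 2.14 and 2.55 CPM in KO and 5.80, 5.25 and 4.96 CPM in WT (log2 fold change -0.57, adjusted p = 0.563, and 0.0423 without KO library 1). Ifng counted 2, 0 and 3 reads in KO libraries and 7, 17 and 4 reads in WT libraries (adjusted p = 0.543). At this depth Ifng was too low for a firm fold. The smallest adjusted p of the list was 0.131 for Furin, a proprotein convertase with 152, 135 and 139 CPM in KO and 194, 164 and 237 CPM in WT. Of the 27 cell cycle genes 26 had a positive value, with a median of 0.13 and no call, and 11 of 13 Tfh genes were positive, with a median of 0.40 and no call (Bcl6, their lead transcription factor, 3.50, 3.45 and 4.29 CPM in KO and 1.52, 1.84 and 2.34 CPM in WT, adjusted p = 0.177). Of 8 inhibitory receptors tested, Tigit came nearest to the threshold with 68.4, 62.1 and 68.7 CPM in KO and 44.6, 52.2 and 49.2 CPM in WT (adjusted p = 0.0621), followed by Lag3 (log2 fold change -0.54, adjusted p = 0.137). Among the 18 alternatives Tigit was called in 7, Furin in 4, Lag3 in 3 and Bcl6 in 0. For Tigit, Furin and Lag3 these included DESeq2. Against the same 0.325% over all genes, no member was called among NK-type receptors (5 tested), Treg genes (13), Th17 genes (10), naive homing genes (12), glycolysis genes (18), type I interferon (11) and interferon gamma (20) response genes, ETS factors (16), common gamma chain receptors (16) and TGF-beta receptors and Smads (14).

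**Figure D3:**
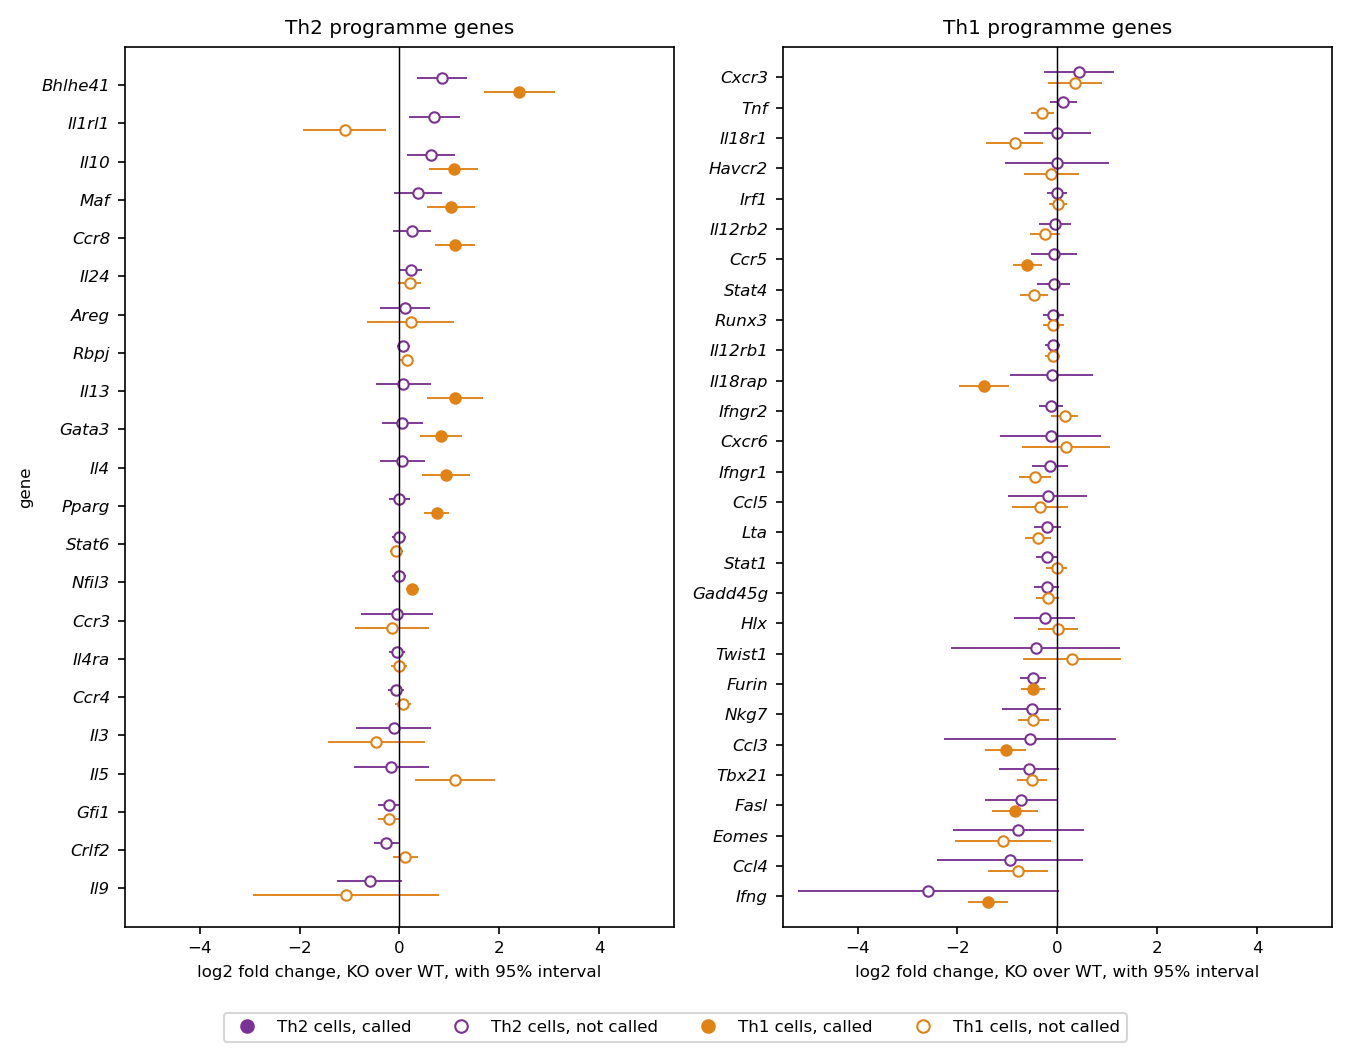
Log2 fold change of KO over WT with 95% interval for the tested genes of the Th2 programme (left) and the Th1 programme (right), in Th2 cells and, under each, in Th1 cells, filled where the adjusted p is under 0.05. No Th2-cell mark is filled, while 9 of 22 Th2 programme genes are filled above 0 and 6 of 28 Th1 programme genes below 0 in Th1 cells. Over all genes tested, 2.16% were called higher and 1.51% lower in KO Th1 cells, against 0.103% and 0.222% in KO Th2 cells.

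More genes were called for the same deletion in Th1 cells, whose 6 libraries were fitted together with the Th2 libraries. Gene counts per library were 8451125 to 9858825 in KO and 8725361 to 10256407 in WT Th1 cells, and the part of depth in the number of calls was not tested. In Th1 cells 462 genes were called (3.66%), 272 higher in KO (2.16%) and 190 lower in KO (1.51%), and DESeq2 called 516 (4.09%). That number was 176 without Th1 WT library 1 and 226 without Th1 KO library 1. Of the 462, 26 were called the same way in Th2 cells, 10 higher and 16 lower, and 0 were called the opposite way. The 26 make up 63.4% of the Th2 calls and 5.63% of the Th1 calls. The Th2 and Th1 comparisons share no library, though both come from the same B number. Omission of a Th2 library lowered the shared number to 10 (KO 3), 12 (KO 2) or 14 (WT 1).

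Gm27162, Gzmc, Emilin1, Muc13, Gpnmb, App, Ppm1j, Pear1, Psen2, Hexa, Klk8, Rcn1, Prnp, Trp53i11, Ckb and Iqsec1 were lower, and Dpp4, Sypl, Parp11, Rhoh, Tpp1, Ddc, Dlc1, Nhsl1, Tns4 and Dsg2 were higher, in KO cells of both kinds. Muc13 had a log2 fold change of -1.40 in Th2 and -1.34 in Th1 cells, Nhsl1 of 2.11 in Th2 and 2.23 in Th1 cells, and Pear1 of -0.84 in both. The difference for Muc13 was -0.06 (95% interval -0.45 to 0.33), and for Pear1 0.01 (-0.41 to 0.43). Iqsec1 was lower by -0.50 in Th2 and by -0.84 in Th1 cells, with a difference of 0.34 (0.02 to 0.65, adjusted p = 0.492). For Ddc the effect was 0.82 in Th2 and 1.49 in Th1 cells, a difference of -0.67 (-1.33 to -0.02, adjusted p = 0.506).

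Most genes called in Th1 cells were not called in Th2 cells. Of the 462, 272 had a Th2 95% interval wholly within 1.5-fold of no change, and 10 averaged under 1 CPM in both Th2 groups. Another 154 had a level above that and an interval reaching beyond 1.5-fold, so that an effect of that size was not excluded by the spread. An interval within 1.5-fold does not make an effect absent, since some Th1 effects were themselves smaller than that. Sh2d2a, for instance, had a log2 fold change of -0.36 in Th1 cells and -0.33 (95% interval -0.48 to -0.18) in Th2 cells. The sign was shared by 381 of the 462 (82.5%), against 54.4% of all genes tested, and 153 of the 462 reached an unadjusted p under 0.05 in Th2 cells with the same sign and 3 with the opposite sign. The median log2 fold change of the 272 genes called higher in Th1 cells was 0.13 in Th2 and 0.61 in Th1 cells. For the 190 called lower it was -0.24 in Th2 and -0.51 in Th1 cells. The Th1 medians come from genes chosen by the Th1 values.

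**Figure D4:**
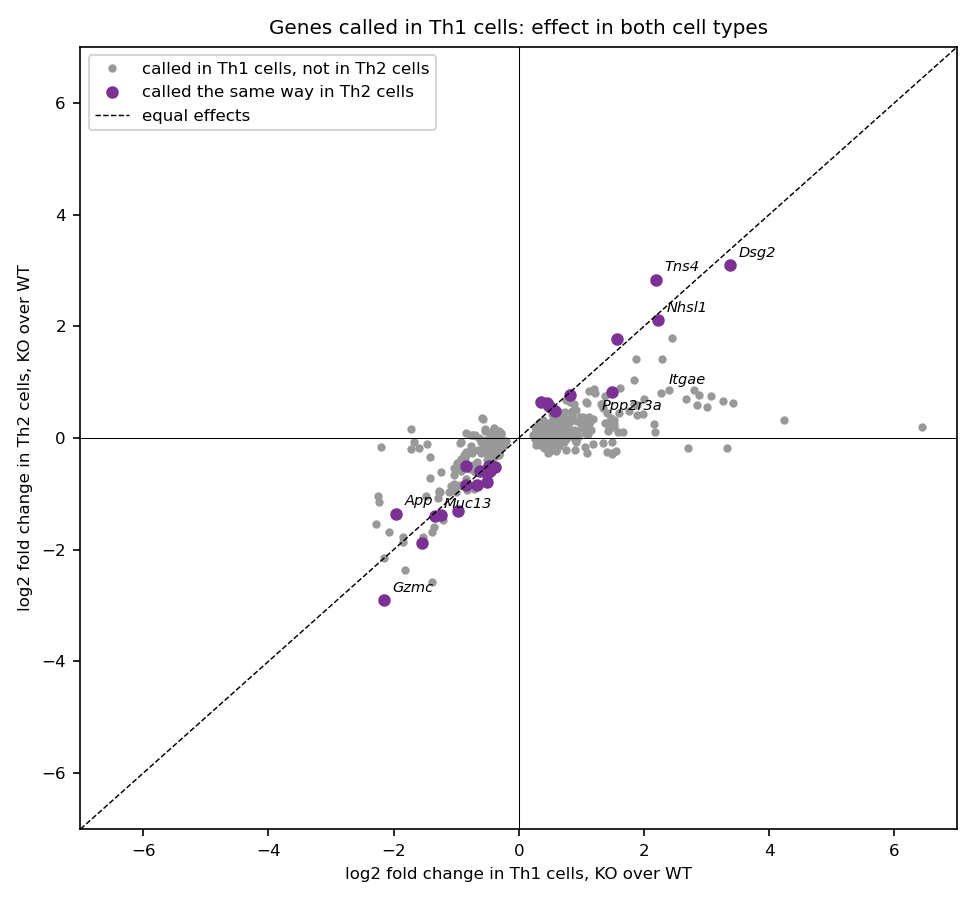
Log2 fold change of KO over WT in Th2 cells (vertical axis) against that in Th1 cells (horizontal axis) for genes called in Th1 cells, without Gm27162, with a dashed line of equal effects. The genes called the same way in both lie near the dashed line, and most genes called in Th1 cells alone lie nearer to the horizontal axis than to that line. The split by call in Th2 cells itself favours this placing, so it is no test of a difference between the cell types.

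No gene passed edgeR's test of the difference between the Th2 and Th1 effects (0 of 12616, 0.00%, smallest adjusted p = 0.197), with 1225 genes at an unadjusted p under 0.05 (9.71%) and 20 called by DESeq2 (0.159%). It gave 3 calls without Th1 KO library 2 and 2 without Th1 WT library 2. So the genes absent from 1 list are not shown to differ between the cell types by edgeR. Among the 20 genes with the smallest p in Th1 cells, 7 were also called in Th2 cells with the same sign (Gm27162, Muc13, App, Tns4, Nhsl1, Iqsec1 and Gzmc). Ppp2r3a, a regulatory subunit gene of a protein phosphatase, had 145, 154 and 160 CPM in KO and 123.2, 114.3 and 123.9 CPM in WT Th2 cells, against 119.5, 74.3 and 93.3 CPM in KO and 41.5, 43.7 and 40.7 CPM in WT Th1 cells. Its log2 fold change was 0.35 in Th2 and 1.19 in Th1 cells (difference -0.84, 95% interval -1.18 to -0.50, adjusted p = 0.197 by edgeR and 0.00734 by DESeq2). Epcam, an epithelial adhesion molecule, had 0.25 in Th2 and 1.52 in Th1 cells (difference -1.27, adjusted p = 0.197 by edgeR and 0.0251 by DESeq2), and Itgae, the integrin chain CD103, 0.81 in Th2 and 2.27 in Th1 cells (difference -1.45, 0.211 by edgeR and 0.0479 by DESeq2).

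Gata3, Il4, Il13, Il10, Ccr8, Pparg, Maf, Nfil3 and Bhlhe41 were called higher in KO Th1 cells, and none of the 9 was called in Th2 cells. Of the 22 tested Th2 programme genes, 9 were called higher in Th1 cells, against 2.16% of all genes. In Th2 cells 0 of the 22 were, against 0.103% of all genes called higher. No difference between the Th2 and Th1 effects on these genes passed edgeR's test. For Pparg the difference between the effects in Th2 and Th1 cells was -0.75 (log2, 95% interval -1.08 to -0.41, adjusted p = 0.197 by edgeR and 0.0433 by DESeq2). For Gata3 it was -0.77 (-1.36 to -0.19, 0.392 by edgeR) and for Il13 -1.03 (-1.82 to -0.25, 0.392 by edgeR). Il10 and Bhlhe41 had positive values in both cell types, 0.63 in Th2 and 1.09 in Th1 cells for Il10 (difference -0.45, adjusted p = 0.704) and 0.86 in Th2 and 2.40 in Th1 cells for Bhlhe41 (difference -1.54, adjusted p = 0.283). Ifng, called lower in KO Th1 cells with 192, 359 and 285 CPM in KO and 963, 534 and 683 CPM in WT (log2 fold change -1.38), was near the floor in Th2 cells of both genotypes. Prf1, called lower in KO Th1 cells (-2.27), missed the threshold in Th2 cells as given above, and Tgfbr1, Klhdc2, Nfia, Gpm6b and Rnf152, called higher in KO Th1 cells, had Th2 log2 fold changes of 0.32, 0.27, 0.38, 0.35 and 0.45 without a call. Xdh, which oxidises purines, had 1.21, 0.476 and 0.696 CPM in KO and 2.35, 3.12 and 2.62 CPM in WT Th2 cells, with a log2 fold change of -1.77 (adjusted p = 0.0646) in Th2 and -1.52 in Th1 cells. Xdh was called in Th2 cells in 4 of 18 alternatives, DESeq2 among them.

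The 15 Th2 calls that were not called in Th1 cells were Lair1, Gm25395, Gm24044, Tnfrsf1a, St6gal1, Atp9a, Gmfg, Litaf, Il10ra, Espn, Pik3r1 and Adam15, lower in KO, and Vps33a, Smtn and Ubash3b, higher in KO. For 14 of the 15, all but Lair1, the Th1 95% interval lay within 1.5-fold of no change. That does not make the effects absent there: Smtn had a Th1 log2 fold change of 0.35 (95% interval 0.14 to 0.56, adjusted p = 0.0624), Vps33a of 0.22 (0.05 to 0.38, 0.156) and Tnfrsf1a of -0.30 (-0.58 to -0.02, 0.264). Smtn was called higher in untransduced KO Th1 cells (log2 fold change 1.73, adjusted p = 0.00237). Ubash3b was among those with the smallest adjusted p of the difference. It had 50.2, 56.0 and 55.9 CPM in KO and 50.4, 54.9 and 57.1 CPM in WT Th1 cells, so the WT level was higher in Th1 than in Th2 cells and the genotypes overlapped there. The difference for Ubash3b was 0.70 (log2, 95% interval 0.44 to 0.96), with an adjusted p of 0.197 by edgeR and 0.0111 by DESeq2. Gm25395 gave a difference of -1.16 (-1.70 to -0.62), with an adjusted p of 0.197 by edgeR and 0.0202 by DESeq2.

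Part of the Th2 effect was also read in other cell states of the same genotypes. In untransduced Th1 cells of a separate experiment (2 KO and 2 WT samples), 40 of the 41 genes were tested, 9 were called the same way and 1 the opposite way, against 1.24% of all genes tested there (0.605% higher, 0.632% lower). In naive CD4+ T cells (2 KO and 2 WT libraries) 33 of the 41 were tested, 18 were called the same way and 3 the opposite way, against 17.7% of all genes (8.75% higher, 8.92% lower). Genotype and sex cannot be told apart in the naive libraries, since Xist had 0 CPM in both KO and 467.7 and 499.9 CPM in WT naive libraries. Gm27162, Muc13, App, Iqsec1, Dpp4, Nhsl1, Tns4 and Dsg2 were called the same way in Th2, Th1 and untransduced Th1 cells. Of these 8, all but Muc13 and Dsg2, which were not tested in naive cells, were also called the same way there. Tns4 had 31.0 and 31.0 CPM in KO naive cells, against 1.37 and 2.06 CPM in WT naive cells, and Nhsl1 had 22.1 and 25.6 CPM in KO, against 5.15 and 5.15 CPM in WT. Neither gene overlapped between the genotypes in naive or in Th2 cells. Without naive KO library 1 the genes shared with naive cells numbered 9, and 10 without naive KO library 2, and without untransduced KO sample 1 those shared with untransduced cells numbered 3, against 6 without KO sample 2 or WT sample 2.

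**Figure D5:**
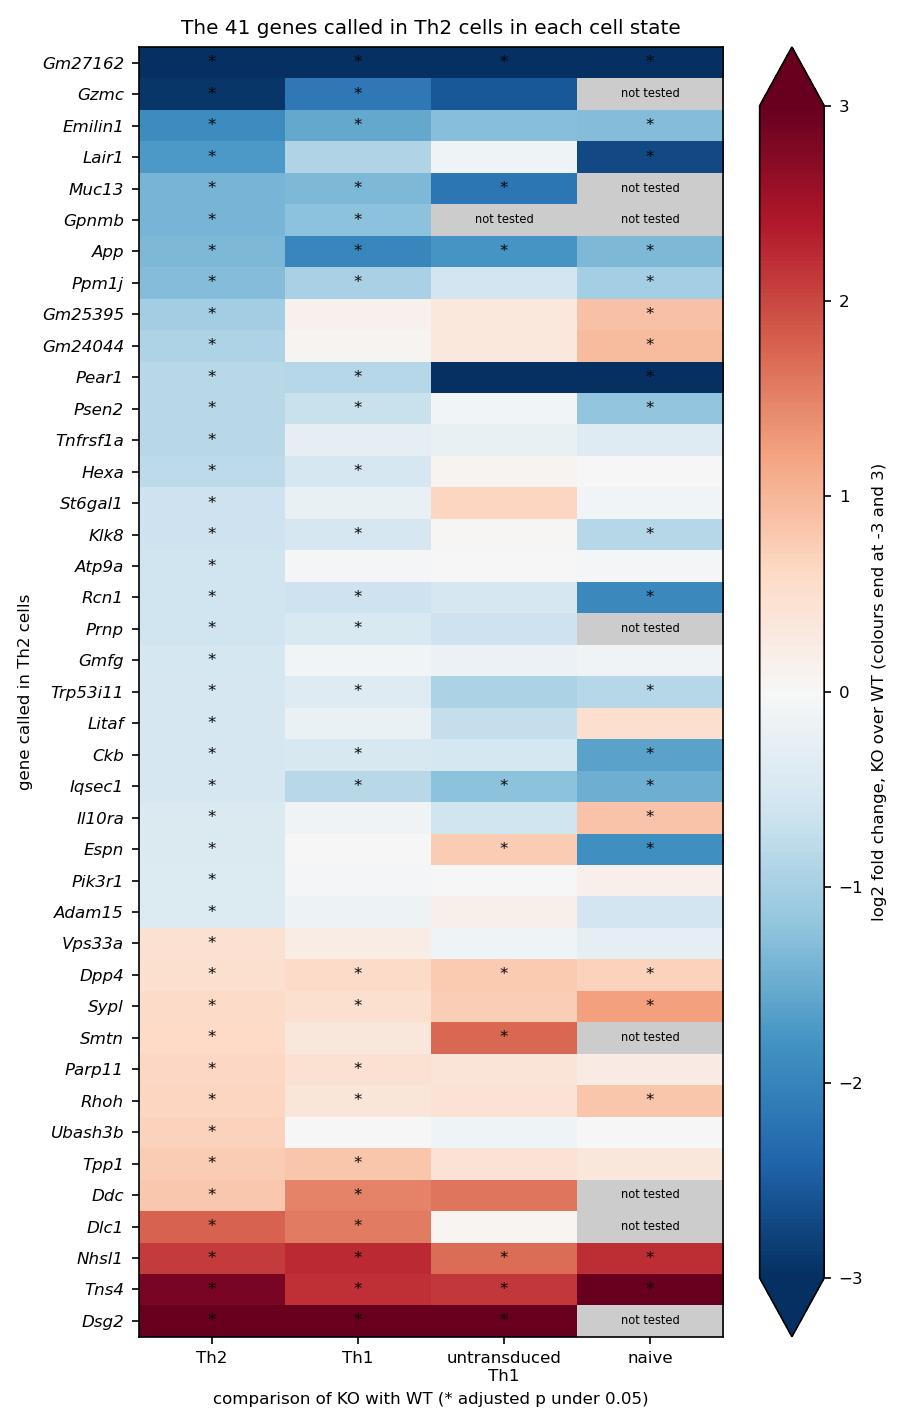
Colour map of the log2 fold change of KO over WT for the 41 genes called in Th2 cells (rows) in Th2, Th1, untransduced Th1 and naive cells (columns), with an asterisk where the adjusted p is under 0.05 and grey where a gene was not tested. The top row, Gm27162, and the rows of Nhsl1 and Tns4 carry an asterisk in all 4 columns, while Ubash3b carries one in Th2 cells alone.

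By position, 5 of the 41 called genes lay on chromosome 9, which carries Ets1 (12.2%, against 5.64% of all genes tested). Besides Gm27162 they were Ubash3b at 8.25 Mb from Ets1, Il10ra at 12.5 Mb, Hexa at 26.8 Mb and Gm24044 at 87.4 Mb. Ubash3b was higher in KO, and the other 4 were lower. Hexa and Gm27162 were also called in Th1 cells, and the other 3 were not.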

How the data were processed

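The deposited tables hold raw read counts per gene, made by the authors with STAR 2.5.0a on GRCm38, per the submitters' processing notes, from a stranded total RNA kit (SMARTer Stranded Pico Input), per the labels' protocols. Column 4 was used, which held 93.95 to 95.02% of the stranded counts in the 12 libraries of the first experiment, and the 4 summary lines (65.5 to 72.9% of the column) were left out. Of 45706 gene IDs, 45143 were matched to names in GENCODE M21, and 10 of the 41 Th2 calls overlap another gene on the same strand, where reads are less certain.

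The 12 Th2 and Th1 libraries were fitted as 4 group means with edgeR 4.0.16 (R 4.3.3, limma 3.58.1), using filterByExpr, TMM factors, glmQLFit and glmQLFTest, with Benjamini-Hochberg adjustment over all 12616 genes and a threshold of 0.05. The Th2 effect minus the Th1 effect was a contrast of that fit. Naive libraries were fitted alone, and in the second Th1 experiment the libraries that share a B number were added up per sample first. DESeq2 1.42.0, RLE factors, no filter, counts without strand, the replicate number as a block, the Th2 libraries alone and the omission of each library were the alternatives. In a simulation of the Th2 comparison on 12404 genes, 59.1% of 1.5-fold, 80.6% of 2-fold and 90.9% of 4-fold changes were recovered, and 5.56% of calls were unchanged genes. It changed 66 or 67 genes per fold size and drew counts with the spread fitted to these libraries. The rates hold for that setting and are not the power of the real comparison. Gene counts per library were 7311614 to 8696279 in Th2 cells, and limits from 0 reads cover counting error only. No replicate pair of the 28 compared agreed within sampling noise. Chi-square per degree of freedom against that noise was 1.93 and 1.26 within B numbers in WT Th1 cells with empty virus. Between B numbers it was 14.1 to 18.2. In KO Th1 cells with Ets1 virus it was 1.99 and 1.50 within and 3.44 to 3.96 between B numbers. Between Th2 libraries of a group it was 2.37 to 7.84, at another depth. What the numbers stand for was not tested.

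All Th2 calls are named, with values by library for at least the 12 largest changes in each direction. Also named are a fixed set of locus and helper genes, list members with small p (up to 4 per list) and the 20 genes with the smallest p in Th1 cells, some by fold change alone. The members and gene lists were chosen with earlier results of these data known. Libraries whose labels conflict on transduction were not analysed here.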

Additional observations from a re-analysis of the deposited data

Results flagged for a closer look

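For 7 genes called in Th2 cells every KO library lay on 1 side of every WT library in Th2 cells and on the opposite side in another cell state. This was so for 5 of 33 Th2 calls in naive cells (15.2%) and 3 of 40 in untransduced Th1 cells (7.50%), against 20.2% and 21.5% of all genes that did not overlap in Th2 cells, so these cases were no more frequent than among all genes. In naive cells the log2 fold change of KO over WT was 0.87 for Gm25395 (-1.03 in Th2 cells), 0.95 for Gm24044 (-0.93 in Th2 cells) and 0.84 for Il10ra (-0.44 in Th2 cells), all 3 called there. It was 0.15 for Pik3r1 (-0.40 in Th2 cells) and -0.26 for Vps33a (0.45 in Th2 cells), neither called in naive cells. In untransduced Th1 cells Espn had 0.77 (-0.42 in Th2 cells) and was called. St6gal1 had 0.65 (-0.62 in Th2 cells) and Gm25395 had 0.32 (-1.03 in Th2 cells) there, without a call. These differences between states were not tested, since the states were fitted separately, and genotype and sex cannot be told apart in naive cells.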

How the results depend on the processing

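In Th2 cells 41 genes were called, against 224 without a filter (78 higher, 146 lower), 79 with DESeq2 (29 higher, 50 lower) and 66 with the Th2 libraries alone (25 higher). Omitting 1 library gave 14 to 68 (6 to 26 higher, 8 to 42 lower). The Th1 count of 462 was 835 without a filter (466 higher, 369 lower) and 176 to 600 with 1 library omitted (91 to 343 higher, 85 to 257 lower). The difference between the effects, with 0 calls, had 213 without a filter (56 higher, 157 lower), 20 with DESeq2 (4 higher, 16 lower) and 0 to 3 with 1 library omitted (0 to 3 lower). The 26 shared genes were 112 without a filter, 42 with DESeq2 and 10 to 36 with 1 library omitted. Genes shared with untransduced cells (9) were 3 to 7, and with naive cells (18) 9 to 17, with 1 library omitted. With the replicate number as a block, Th2 calls were 63 (24 higher) and shared genes 37. Over all group pairs, correlations were -0.107 to 0.236 for the same number and -0.184 to 0.174 for other numbers. Of the 3 KO Th2 libraries, 1 correlated best with the WT Th2 library of its number. Between WT Th2 and WT Th1 cells the same number gave 0.066, 0.146 and 0.236, against -0.184 to 0.055 for other numbers. Whether the numbers pair the samples is thus not settled. Apart from the omissions, where fewer samples entered, the cause of these shifts was not tested. No called result changed direction. Among values of single genes, 7070 stayed on their side of the threshold, 135 came to pass it and 219 ceased to. Precision is limited by depth for genes of a few CPM, such as Ifng.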
